A study of Homo sapiens with 6 samples.

Results

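Which transcripts change in the same way in HT29 and SW480 cells when BZW2 is knocked down was examined by RNA sequencing. HT29 and SW480 are established human colorectal cancer cell lines, and the series also holds HCT116, another such line. Each line was infected with a lentivirus carrying either a non-targeting hairpin RNA (shRNA), here the control, or an shRNA against BZW2 labelled SH2. All groups were selected as stable lines with puromycin at 1 µg/ml, so the control cells carry a vector and the drug selection too. 1 library per line and treatment was made from total RNA of cultured cells, which gives 2 control and 2 knockdown libraries for the comparison, of 6 libraries in the series. The labels name a single BZW2 hairpin, do not say whether the lines are clones or pools, and name no separate cultures. A p-value below therefore rests on how far the change differs between these 2 lines, with that spread mostly pooled over genes. The genes compared were the 11082 identifiers, of 13021 with a single row in the deposited table, that had values in all 4 libraries. Values are gene read counts divided by a size factor set within each line and are called normalised reads, and levels were compared within a line.

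BZW2 encodes an eIF5-mimic protein, which resembles the end of the initiation factor eIF5 that contacts eIF2 and takes part in the control of translation initiation. When eIF2 is phosphorylated in the integrated stress response, most initiation slows while the transcription factor ATF4 is translated better, and ATF4 turns on genes for amino acid supply and stress adaptation. Other programmes that recur below are the hypoxia response driven by HIF factors, which raises glucose uptake and vessel growth signals, and the cell division programme, in which E2F factors act on replication genes and the MuvB, MYBL2 and FOXM1 group on mitotic genes.

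Reads over listed genes numbered 9317444 and 8968603 in the HT29 control and knockdown libraries and 5078001 and 6105605 in the SW480 pair. Of 15 markers of colorectal epithelium, EPCAM, KRT8, KRT18, KRT19 and CDX2 had values in both lines, and the other 10 had no value in either. Their summed level was 89890 in the control and 80731 in the knockdown of HT29, and 36075 and 36563 in SW480. Of 20 markers of fibroblasts, endothelium and leukocytes, 0 had values in both lines and 1, COL1A1, had values in SW480 at 28.8 and 9.04 normalised reads.

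BZW2 itself (ENSG00000136261, chr7:16646131-16706523 on GRCh38) was lower in both knockdown libraries. It went from 1545.5 to 137 normalised reads in HT29 and from 504 to 69.6 in SW480, which is 8.85% and 13.8% of control. Each knockdown library lay far below its own control. The log2 fold change, the mean of the 2 lines' log2 ratios, was −3.16 ± 0.28 (moderated SE, 2 lines a side, limma adjusted p = 0.000429). Here and below that SE rests mostly on spread pooled over genes, so it can understate how far a gene's 2 lines differ. Its paralogue BZW1, the other eIF5-mimic gene, went from 2693 to 3695 normalised reads in HT29 and from 3670.5 to 3396 in SW480, a log2 fold change of 0.17 ± 0.29 that missed the threshold (limma adjusted p = 0.802).

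With BZW2 knocked down, 11 of 24 ATF4 targets and 11 of 27 hypoxia genes fell and none of either rose, while 21 of 43 DNA replication genes and 16 of 30 mitotic cyclin, kinase and checkpoint genes rose and none of either fell. At an adjusted p under 0.05, 149 of 11082 genes fell (1.34%) and 180 rose (1.62%), together 2.97% of those tested. NDRG1, a hypoxia-induced gene, had the smallest adjusted p of all, 0.00019. The genes that fell had log2 fold changes from −3.85 to −1.04 with a median of −1.64, and those that rose from 1.05 to 2.21 with a median of 1.37. The largest falls were thus deeper than the largest rises. Each of the 149 was lower in both lines and each of the 180 higher in both. Of them, 117 and 146 differed at least 2-fold in each line. The test selects on these same ratios, so this agreement is largely set by the selection. Over all 11082 genes, 63.1% had the same sign in both lines. The 2 lines differed by more than 1 on the log2 scale for 45 genes that fell and for 6 that rose. Because each line adds 1 library a side, the test leans on the spread pooled over genes, and it called 0 genes in either direction without cell line as a block (76 lower and 49 higher at an unadjusted p under 0.05) and 0 with HCT116 added (766 and 717). Without the trend of spread on level it called 20 lower and 0 higher genes (899 and 917 at an unadjusted p under 0.05, against 944 and 1054 in the reported test).

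**Figure D1:**
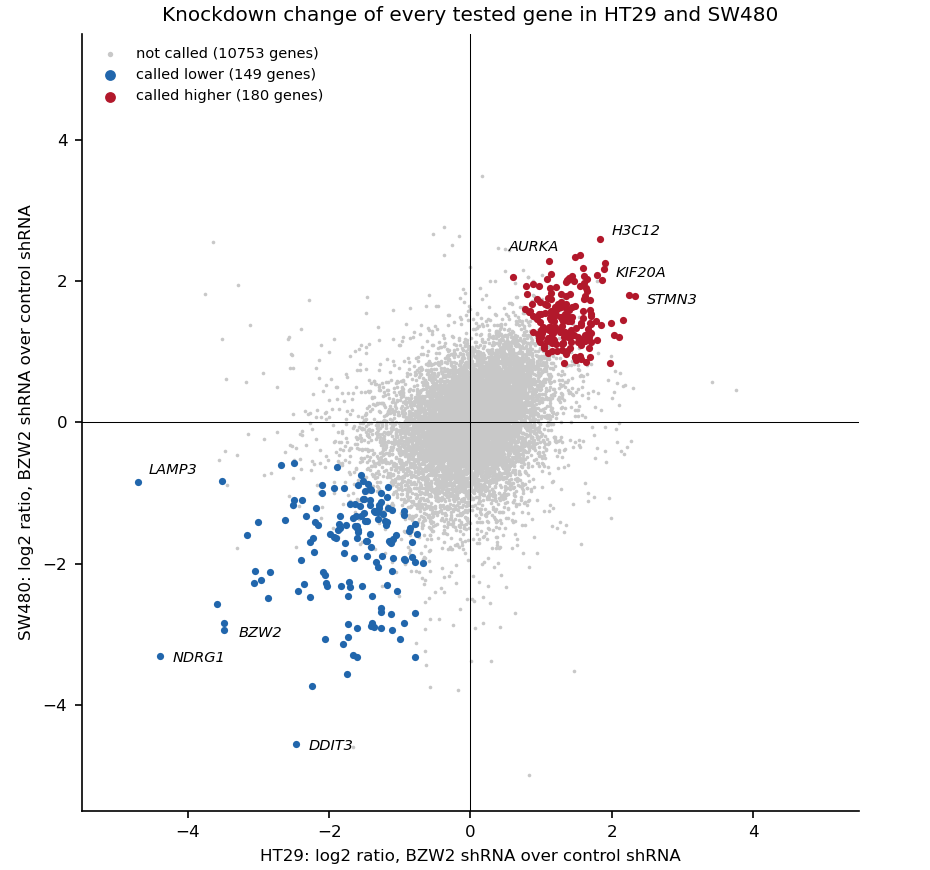
Log2 ratio of BZW2 shRNA over control shRNA in HT29 (x axis) and SW480 (y axis) for 11082 genes, 1 point a gene, with the 149 genes that fell in blue and the 180 that rose in red. The genes that rose sit in a compact group near 1 to 2 on both axes, whereas those that fell spread out to −4.71 in HT29 (LAMP3) and −4.56 in SW480 (DDIT3).

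Counted in each line separately, with no test, 135 genes of 9764 with enough reads were at least 2-fold lower in both lines (1.38%) and 151 at least 2-fold higher in both (1.55%). The shared genes made up 23.0% of the 586 genes 2-fold lower in HT29 and 22.6% of the 598 in SW480. Upward they made up 42.3% of 357 genes in HT29 and 33.4% of 452 in SW480. Of the 135 and 151 genes, 110 and 137 also passed the test across genes, which uses the same 4 libraries and so is no separate support. In the opposite direction, 20 genes were 2-fold lower in HT29 and 2-fold higher in SW480, and 6 the reverse. Across all 11082 genes the log2 ratios of the lines, which share no library, had a Pearson r of 0.379 and a Spearman rho of 0.370, and 63.1% of genes had the same sign, as a description since genes are not independent.

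Target genes of ATF4 fell in 11 members. Of 24 tested, 11 fell and 0 rose (45.8%, against 1.34% of all genes), and 23 were lower in both lines, against 3212 of all 11082 genes. The list's median log2 fold change was −0.96, with −0.91 in HT29 and −1.54 in SW480, where the median of all genes was 0.02. The deepest fall was that of DDIT3 (ENSG00000175197, chr12:57516588-57521737), which encodes CHOP, a transcription factor of prolonged stress. It went from 2342.5 to 421 normalised reads in HT29 and from 2321 to 97.7 in SW480, with the deeper drop in SW480. Its log2 fold change was −3.52 ± 0.39 (limma adjusted p = 0.00241). ATF3, a stress-induced transcription factor, went from 658 to 158 normalised reads in HT29 and from 539 to 110.32 in SW480 (−2.16 ± 0.27, limma adjusted p = 0.00449). NIBAN1, a stress-induced gene, went from 2018 to 429 normalised reads in HT29 and from 314 to 100.37 in SW480 (−1.93 ± 0.27). PPP1R15A, which encodes GADD34, the phosphatase subunit that removes phosphate from eIF2, went from 1011 to 406 normalised reads in HT29 and from 328 to 78.7 in SW480 (−1.68 ± 0.28). ATF3 and PPP1R15A had the deeper ratio in SW480 and NIBAN1 in HT29, and each knockdown library lay below its own control.

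Other ATF4 targets that fell, named after their values were seen, included amino acid and growth-control genes with deeper ratios in SW480 than in HT29. ASNS, asparagine synthetase, went from 6130.5 to 3195 normalised reads in HT29 and from 2539 to 354 in SW480 (−1.89 ± 0.38). CHAC1, a glutathione-degrading enzyme, had log2 ratios of −1.004 in HT29 and −3.07 in SW480, and DDIT4, an inhibitor of mTORC1, of −1.26 in HT29 and −2.69 in SW480. TRIB3, a pseudokinase induced by CHOP, had −1.18 in HT29 and −2.31 in SW480, and SESN2, a leucine sensor that restrains mTORC1, −0.93 in HT29 and −1.93 in SW480. SLC7A11, the cystine transporter, had −0.83 in HT29 and −1.91 in SW480. ATF4 mRNA itself had a log2 fold change of −0.75 ± 0.31 and missed the threshold (limma adjusted p = 0.23). Enzymes that charge tRNAs stood less far down: of 20 cytosolic synthetases, 2 fell, AARS1 at −1.26 ± 0.29 and WARS1 at −1.13 ± 0.25, and the list median was −0.33. Of 15 serine and one-carbon enzymes 0 fell and 1 rose (6.67%, against 1.62% of all genes). That gene, SHMT1, the cytosolic serine hydroxymethyltransferase, went from 182 to 595 normalised reads in HT29 and from 154 to 371 in SW480 (1.48 ± 0.27). That list's median was −0.43, opposite in sign to its 1 gene that rose.

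Genes of the unfolded protein response, which expands folding and degradation in the endoplasmic reticulum, fell in a smaller number of members. Of 32 tested, 6 fell (18.8%) and 0 rose, 22 were lower in both lines and 1 was higher in both. The median was −0.52, with −0.31 in HT29 and −0.95 in SW480. SEL1L, an adaptor of the ubiquitin ligase that clears misfolded proteins, went from 2594 to 718 normalised reads in HT29 and from 2123 to 751 in SW480 (−1.67 ± 0.26, limma adjusted p = 0.00905). ERN1, which encodes the stress sensor IRE1, went from 590.01 to 156 normalised reads in HT29 and from 261 to 83.2 in SW480 (−1.77 ± 0.28). HERPUD1, a partner in the same degradation route, went from 1165 to 537 normalised reads in HT29 and from 1192 to 155 in SW480 (−2.03 ± 0.36), and DNAJB9, a cofactor of the chaperone BiP, from 764 to 247 normalised reads in HT29 and from 452 to 179.94 in SW480 (−1.48 ± 0.26). The ratios of the lines were close for SEL1L and DNAJB9, whereas HERPUD1 had −1.12 in HT29 and −2.94 in SW480. BiP itself, encoded by HSPA5 and named after its values were seen, went from 9453 to 3942 normalised reads in HT29 and from 26664 to 3533 in SW480 (−2.09 ± 0.40, limma adjusted p = 0.0175).

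The 200 bases before the RefSeq start of HSPA5 and HERPUD1 (GRCh38.p14, 5′ to 3′ on the gene's strand) are shown because they hold the response elements this pathway is known for; other annotations can place the start elsewhere. In HSPA5 the capitals mark a match to the full ER stress response element (CCAAT, then 9 bases, then CCACG), whose first base lies 66 bases before the start. In HERPUD1 they mark the amino acid response match TGATGNAA on the opposite strand at 176 bases before the start, CCACG at 160 and 111, and CCAAT or its reverse complement at 117 and 83.
HSPA5 (chr9:125241344-125241543, minus strand): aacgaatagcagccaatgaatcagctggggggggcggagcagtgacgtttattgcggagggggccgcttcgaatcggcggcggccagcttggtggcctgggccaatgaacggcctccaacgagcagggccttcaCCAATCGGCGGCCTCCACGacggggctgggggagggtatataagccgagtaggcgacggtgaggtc
HERPUD1 (chr16:56931942-56932141, plus strand): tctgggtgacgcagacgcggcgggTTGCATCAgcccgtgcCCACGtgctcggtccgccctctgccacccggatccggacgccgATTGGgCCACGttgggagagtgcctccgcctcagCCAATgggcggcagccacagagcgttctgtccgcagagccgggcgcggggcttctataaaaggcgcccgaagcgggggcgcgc
The full element was in 19 of 22114 RefSeq promoters with a single listed start (0.0859%) and in 2 of the 6 genes of this list that fell, HSPA5 and ERO1B. Of 6211 tested genes 0.193% held it. TGATGNAA was in 5 of 94 genes that fell (5.32%), in 3 of 123 that rose (2.44%), in 1.26% of tested genes and in 3.85% of all promoters. CCACG alone was common, in 51.1% of genes that fell, 60.2% of genes that rose, 52.6% of tested genes and 37.0% of all promoters.

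Hypoxia-induced genes gave the list with the lowest median. Of 27 tested, 11 fell and 0 rose (40.7%, against 1.34% of all genes), and the median log2 fold change was −1.17, with −1.17 in HT29 and −1.39 in SW480. NDRG1 (ENSG00000104419, chr8:133237171-133302022), induced by hypoxia and by differentiation, went from 6874 to 325 normalised reads in HT29 and from 4763 to 481 in SW480 (−3.85 ± 0.30, limma adjusted p = 0.00019). P4HA1, a collagen prolyl hydroxylase, went from 2320.2 to 762 normalised reads in HT29 and from 3929 to 522 in SW480 (−2.26 ± 0.32). NDRG1 had the deeper ratio in HT29 and P4HA1 in SW480. BHLHE40, a transcriptional repressor, went from 155 to 37.0 normalised reads in HT29 and from 533 to 106 in SW480 (−2.18 ± 0.30).

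Secreted products on that list fell too. ADM, which encodes the vasodilator adrenomedullin, went from 243 to 68.9 normalised reads in HT29 and from 1398 to 157 in SW480 (−2.47 ± 0.33, limma adjusted p = 0.00618). VEGFA, the main vessel growth factor, went from 2932 to 741 normalised reads in HT29 and from 355 to 118 in SW480 (−1.78 ± 0.26). ANGPTL4, an inhibitor of lipoprotein lipase, went from 21.4 to 2.06 normalised reads in HT29 and from 602 to 107 in SW480 (−2.68 ± 0.39), and its HT29 libraries held 2 and 22 reads, so the knockdown was at 9.62% of its control with an exact 95% Clopper-Pearson interval of 1.10% to 39.1%, which covers counting error only. Each knockdown library lay below its own control for the 3 genes, and the ratio of ADM was deeper in SW480. Also falling, and named after their values were seen, were BNIP3L, a mitophagy receptor (−1.54), RORA, a nuclear receptor (−2.48), the HIF hydroxylase EGLN3 (−1.42), EPAS1, which encodes HIF-2 alpha (−1.19), and the disulfide oxidase ERO1A (−1.17). HIF1A, which encodes HIF-1 alpha, had log2 ratios of −0.35 in HT29 and 0.67 in SW480 and missed the threshold.

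Genes of glucose uptake and glycolysis fell in part. Of 22 tested, 6 fell (27.3%) and 0 rose, with a median log2 fold change of −0.63. HK2, the inducible hexokinase, went from 2039 to 491 normalised reads in HT29 and from 2123 to 253 in SW480 (−2.56 ± 0.29, limma adjusted p = 0.00243). ALDOC, an aldolase, went from 512 to 122 normalised reads in HT29 and from 849 to 189.89 in SW480 (−2.11 ± 0.26). Both lines showed ratios of like size for ALDOC, and HK2 was deeper in SW480. PFKFB4, which sets fructose 2,6-bisphosphate, went from 272 to 78.2 normalised reads in HT29 and from 461 to 127.5 in SW480 (−1.82 ± 0.28), and PDK1, which restrains pyruvate entry into mitochondria, from 1370.5 to 517 normalised reads in HT29 and from 635 to 186 in SW480 (−1.58 ± 0.26). ENO2 (−1.57) and the glucose transporter SLC2A1 (−1.44), named after their values were seen, completed the 6. GAPDH (−0.25), ENO1 (−0.14) and PKM (0.22) had log2 fold changes near 0.

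**Figure D2:**
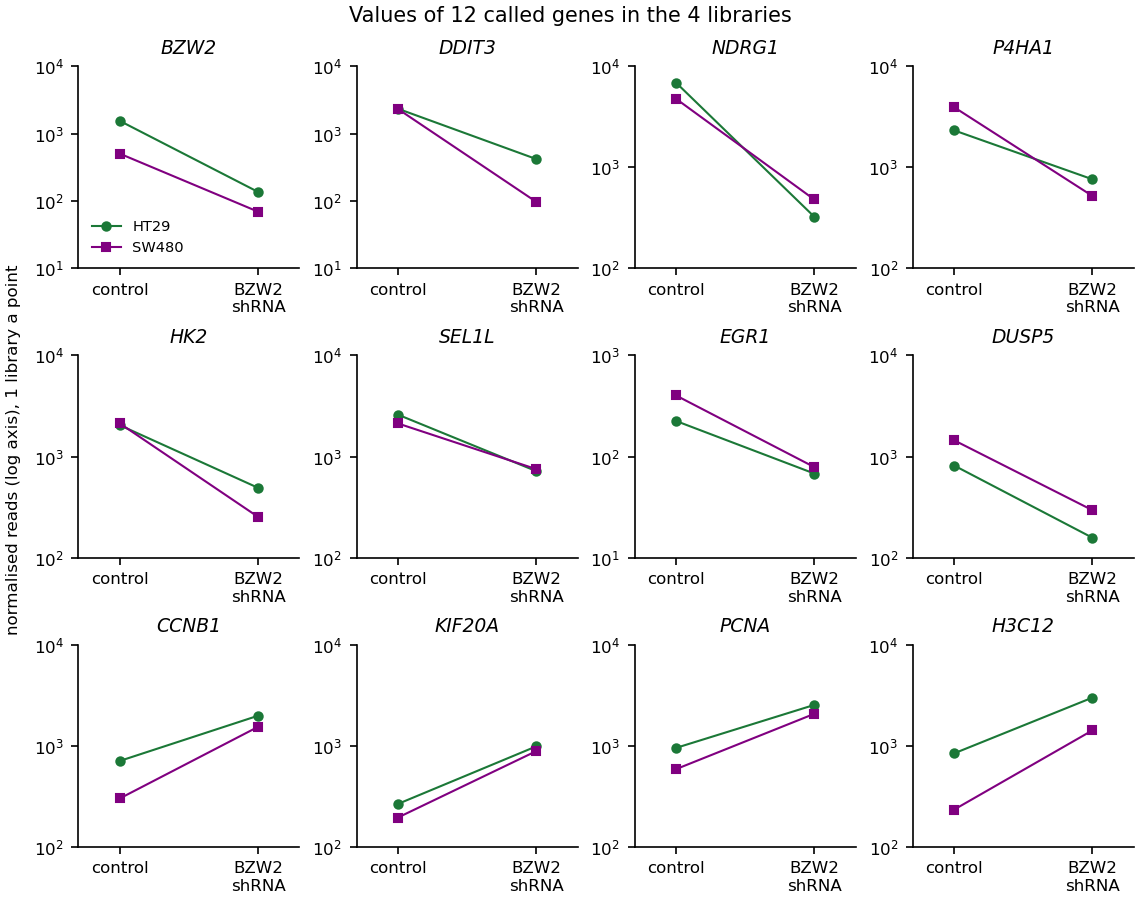
Normalised reads (log axis) of 12 called genes in the control and BZW2 shRNA libraries of HT29 (green circles) and SW480 (purple squares), 1 library a point and lines joining the 2 libraries of a line. The first 8 genes, from BZW2 to DUSP5, are lower in both knockdown libraries, and CCNB1, KIF20A, PCNA and H3C12 are higher in both.

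Immediate early genes, which respond within minutes to growth factors and stress, were lower in part. Of 25 tested, 6 fell (24%) and 0 rose, with medians of −0.57 in HT29 and −0.997 in SW480. EGR1, a zinc finger factor downstream of ERK, went from 225 to 67.9 normalised reads in HT29 and from 401 to 78.7 in SW480 (−2.02 ± 0.31, limma adjusted p = 0.00856). FOS, a subunit of AP-1, went from 508 to 231 normalised reads in HT29 and from 254 to 38.0 in SW480 (−1.92 ± 0.36), and JUNB, another subunit, from 1008 to 407 normalised reads in HT29 and from 904 to 348 in SW480 (−1.34 ± 0.25). KLF4, a differentiation factor of gut epithelium, went from 287 to 90.5 normalised reads in HT29 and from 337 to 88.6 in SW480 (−1.78 ± 0.29). The ratios of JUNB and KLF4 were close between the lines, while FOS had −1.13 in HT29 and −2.71 in SW480. DUSP1 (−1.56) and MAFF (−1.31), named after their values were seen, also fell, and MYC, at −0.54, missed the threshold. Among 23 ERK feedback genes, 1 fell (4.35%, against 1.34% of all genes). That gene, DUSP5, a nuclear ERK phosphatase, went from 814 to 157 normalised reads in HT29 and from 1445 to 295 in SW480 (−2.33 ± 0.25, limma adjusted p = 0.00241). DUSP6, a cytoplasmic ERK phosphatase, had log2 ratios of 0.27 in HT29 and −0.87 in SW480 and the list median was −0.17.

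Smaller numbers fell in several other lists. The shares were 12.9% of the interferon list and 8.11% of the autophagy list, against 1.34% of all genes. In the interferon response, 4 of 31 fell: IFITM1 (127 to 14.4 in HT29 and 74.1 to 14.5 in SW480, −2.67 ± 0.42) and IFITM3 (−1.40), which restrict virus entry, the exonuclease ISG20 (−1.37) and the helicase-like DDX60L (1231 to 190.33 in HT29 and 1401 to 925 in SW480, −1.64 ± 0.39). The fall of DDX60L was mostly that of HT29, and of the list's members 31 were lower in HT29 and 22 higher in SW480, so these 4 were among the 9 lower in both. In the autophagy list, 3 of 37 fell and 1 rose (2.7%, against 1.62% of all genes). MAP1LC3B, which encodes the autophagosome protein LC3B, went from 679 to 305 normalised reads in HT29 and from 774 to 241 in SW480 (−1.42 ± 0.27), WIPI1, which binds early autophagosomes, was at −1.18, and GLA, a lysosomal galactosidase, rose at 1.20. LAMP3, a lysosomal membrane protein, went from 187 to 6.17 normalised reads in HT29 and from 80.7 to 44.3 in SW480. Its HT29 ratio was the lowest of any gene that fell, its SE was 0.67 and its limma adjusted p was 0.0465.

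Of 28 epithelial junction genes, CDH1, which encodes E-cadherin, fell at −1.17 ± 0.28 (4402 to 2608 in HT29 and 982 to 328 in SW480), and OCLN, occludin, at −1.34 ± 0.32, with log2 ratios of −0.67 in HT29 and −1.997 in SW480. Both adjusted p lay near the threshold, at 0.0465 for each gene in limma, and the list median was −0.42. These 2 genes were 7.14% of the list, against 1.34% of all genes. Among 11 mesenchymal and matrix genes tested, FN1, fibronectin, went from 38.9 to 17.5 normalised reads in HT29 and from 248 to 57.0 in SW480 (−1.61 ± 0.39). CDH1 is commonly used as an epithelial and FN1 as a mesenchymal marker, and both fell. STARD4, a cholesterol carrier, fell at −1.55 ± 0.25 as the single call of 31 sterol and fatty acid genes (3.23%), whose median was 0.11. SEC24D, a coat protein of vesicles leaving the endoplasmic reticulum, fell at −1.10 ± 0.27 as 1 of 42 transport genes (2.38%). Over all genes 1.34% fell, so 1 call in lists of this size is near that share and is no result about the list.

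Outside the lists stood 92 of the 149 genes that fell. TRPV6, an epithelial calcium channel, went from 114 to 9.26 normalised reads in HT29 and from 89.6 to 10.9 in SW480 (−3.21 ± 0.43, limma adjusted p = 0.00618). APOL6, of the apolipoprotein L family, went from 4008 to 1209.9 normalised reads in HT29 and from 74.1 to 12.7 in SW480 (−2.09 ± 0.29). SAT1, the enzyme that acetylates spermidine and spermine for breakdown, went from 1119.8 to 464 normalised reads in HT29 and from 16462 to 2672 in SW480 (−1.95 ± 0.33). PKIB, an inhibitor of protein kinase A, had log2 ratios of −1.60 in HT29 and −3.32 in SW480, and IL1RAP, a co-receptor for interleukin 1, of −1.39 in HT29 and −2.83 in SW480. The ratios of PKIB, IL1RAP and SAT1 were deeper in SW480, and those of SLFN5, GPCPD1 and CD55 in HT29. SLFN5, of the Schlafen family, had −2.20 in HT29 and −1.40 in SW480, the phosphodiesterase gene GPCPD1 −2.16 in HT29 and −1.45 in SW480, and CD55, which protects cells from complement, −1.77 in HT29 and −1.45 in SW480. FSIP2, a sperm sheath protein gene, was at −2.37 ± 0.35 and PABPC1L, a poly(A)-binding protein gene, at −1.99 ± 0.32.

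Genes of mitosis rose in large shares. Of 30 mitotic cyclins, kinases and checkpoint genes, 16 rose and 0 fell (53.3%, against 1.62% of all genes), and all 30 tested were higher in both lines, against 3779 of 11082 genes. The list's median was 1.27, with 1.18 in HT29 and 1.36 in SW480. CCNB1, cyclin B1, went from 707 to 1976 normalised reads in HT29 and from 301 to 1534 in SW480 (1.91 ± 0.28, limma adjusted p = 0.00673). CCNA2, cyclin A2, went from 586 to 1825 normalised reads in HT29 and from 262 to 979 in SW480 (1.77 ± 0.25). AURKA, a kinase of spindle poles, went from 610.42 to 1790.1 normalised reads in HT29 and from 158 to 819 in SW480 (1.96 ± 0.28). All 3 genes had the larger ratio in SW480. BUB1B, a checkpoint kinase-like protein, went from 434 to 1361 normalised reads in HT29 and from 258 to 1055 in SW480 (1.84 ± 0.26), and CDC20, the activator of the anaphase-promoting complex, from 174 to 564 normalised reads in HT29 and from 210.12 to 699 in SW480 (1.71 ± 0.26). In these bulk samples more dividing cells and more of these mRNAs per cell cannot be told apart.

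The kinetochore list had 10 of 29 genes that rose (34.5%) and 0 that fell, with medians of 0.82 in HT29 and 1.26 in SW480. ZWINT, which links the checkpoint to the kinetochore, went from 428 to 1478 normalised reads in HT29 and from 187 to 798 in SW480 (1.94 ± 0.26, limma adjusted p = 0.00618). SPC24, of the NDC80 complex, was at 1.70 ± 0.28, CENPI, of the inner kinetochore, at 1.49 ± 0.29, and HJURP, the chaperone that loads the centromere histone, at 1.22 ± 0.25. CENPE, a kinetochore motor named after its values were seen, had log2 ratios of −2.12 in HT29 and 1.09 in SW480 and was not called. In the spindle and cytokinesis list 19 of 38 rose (50%) and 0 fell. KIF20A (ENSG00000112984, chr5:138178719-138187715), a kinesin of the midzone, went from 265 to 982.5 normalised reads in HT29 and from 195 to 882 in SW480 (2.03 ± 0.26, limma adjusted p = 0.00472). BIRC5, which encodes survivin, went from 466 to 1370.4 normalised reads in HT29 and from 464 to 1780.4 in SW480 (1.75 ± 0.26). Both genes had ratios of like size in the lines. DLGAP5, a spindle protein, was at 1.49 ± 0.26 and FAM83D at 1.42 ± 0.26.

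The 200 bases before the start of 4 genes that rose are shown (RefSeq, GRCh38.p14, 5′ to 3′ on the gene's strand) as examples of the elements counted below. Capitals mark the cell cycle homology region (CHR; TTTGAA or TTCGAA) and CCAAT in CDC20, ASF1B and PIF1, and the E2F match TTTCCCGC and CCAAT in GINS2, on either strand. ASF1B is a histone chaperone, PIF1 a DNA helicase and GINS2 a subunit of the replicative helicase, and all 4 rose.
CDC20 (chr1:43358781-43358980, plus strand): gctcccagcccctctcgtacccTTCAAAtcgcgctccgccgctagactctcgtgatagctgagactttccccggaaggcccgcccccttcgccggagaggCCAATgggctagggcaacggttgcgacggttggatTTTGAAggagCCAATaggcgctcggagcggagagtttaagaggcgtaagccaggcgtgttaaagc
ASF1B (chr19:14136590-14136789, minus strand): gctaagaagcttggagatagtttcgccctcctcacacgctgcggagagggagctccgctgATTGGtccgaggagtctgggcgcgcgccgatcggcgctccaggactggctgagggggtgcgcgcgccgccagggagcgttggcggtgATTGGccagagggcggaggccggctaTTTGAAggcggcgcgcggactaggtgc
PIF1 (chr15:64825648-64825847, minus strand): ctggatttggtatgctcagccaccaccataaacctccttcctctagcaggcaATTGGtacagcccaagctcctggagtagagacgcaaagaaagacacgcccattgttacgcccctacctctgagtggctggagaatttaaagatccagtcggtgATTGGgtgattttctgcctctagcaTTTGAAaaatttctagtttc
GINS2 (chr16:85688955-85689154, minus strand): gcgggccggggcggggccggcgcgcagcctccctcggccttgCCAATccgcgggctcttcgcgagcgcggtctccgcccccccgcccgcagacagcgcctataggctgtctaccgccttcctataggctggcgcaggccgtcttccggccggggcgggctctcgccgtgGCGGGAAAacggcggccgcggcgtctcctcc
CHR matches began 65 and 178 bases before the start of CDC20, 27 before that of ASF1B and 20 before that of PIF1, and the E2F match of GINS2 began at 31.

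Promoters were searched on both strands from 250 bases before to 50 after the start, in genes with a single listed start. CHR letters were in 51 of 123 promoters of genes that rose (41.5%), in 13 of 94 of genes that fell (13.8%), in 10.9% of 6211 tested genes and in 17.2% of all 22114 promoters. CCAAT was in 65.0%, 40.4%, 38.5% and 36.2% of the same sets, and CHR with CCAAT in 33.3%, 3.19%, 5.02% and 6.91%. By list, CHR was in 11 of 14 spindle genes that rose, 7 of 9 kinetochore genes and 7 of 11 mitotic cyclin, kinase and checkpoint genes, but in 1 of 15 replication genes. E2F letters (TTTCCCGC, TTTGGCGC or TTTCGCGC) were in 8 of those 15 replication genes, in 19.5% of genes that rose, 1.06% of genes that fell, 5.12% of tested genes and 2.69% of all promoters. The short hypoxia letters ACGTG or GCGTG were in 58.5% of genes that fell, below the 66.8% of tested genes, and in 47.3% of all promoters. Among hypoxia list genes that fell they were in 6 of 8 promoters (75%). A match is a description of letters in this window.

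DNA replication genes rose in a large share of members. Of 43 tested, 21 rose and 0 fell (48.8%), 41 were higher in both lines and the medians were 1.18 in HT29 and 1.16 in SW480. PCNA, the sliding clamp of DNA polymerase, went from 951 to 2529 normalised reads in HT29 and from 586 to 2063.5 in SW480 (1.61 ± 0.26, limma adjusted p = 0.0107). ORC1, of the origin recognition complex, went from 66.1 to 299 normalised reads in HT29 and from 87.4 to 239.62 in SW480 (1.80 ± 0.31), and GINS2 from 126 to 352 normalised reads in HT29 and from 92.9 to 375 in SW480 (1.74 ± 0.29). FEN1, which trims Okazaki fragments, went from 816 to 2081 normalised reads in HT29 and from 386 to 1338 in SW480 (1.57 ± 0.26). Of these 4 genes ORC1 had the larger ratio in HT29 and the others in SW480. Of the MCM2 to MCM7 helicase subunits, named after their values were seen, MCM2 (1.22), MCM3 (1.47), MCM4 (1.57), MCM5 (1.44) and MCM6 (1.21) rose, and MCM7 (0.93) missed the threshold.

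Supply of DNA building blocks and repair rose in fewer members. Of 24 nucleotide synthesis genes, 5 rose (20.8%) and 0 fell. Among them were TK1, thymidine kinase (1.46 ± 0.26), TYMS, thymidylate synthase (1.34 ± 0.29), RRM1, the large subunit of ribonucleotide reductase (1.20 ± 0.27), and DCTPP1, which removes aberrant dCTP (1.15 ± 0.26), the last named after its values were seen. TK1 went from 298 to 707 normalised reads in HT29 and from 206 to 662 in SW480, with each knockdown library above its own control. The enzymes of the first purine steps, PPAT (0.12) and GART (0.13), named in the same way, had log2 fold changes near 0. Of 31 repair genes, 3 rose: the helicase BLM (1.21 ± 0.26), the nuclease EXO1 (1.38 ± 0.27) and the Fanconi gene FANCG (1.24 ± 0.30). The repair list's median was 0.75.

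Cell cycle regulators rose in part. Of 29 E2F, MYBL2, FOXM1 and G1 genes, 5 rose (17.2%) and 0 fell. E2F1, an activator of S phase genes, went from 211 to 596 normalised reads in HT29 and from 90.7 to 229.68 in SW480 (1.41 ± 0.28, limma adjusted p = 0.0189). MYBL2, which joins MuvB at mitotic genes, went from 152 to 521 normalised reads in HT29 and from 42.0 to 116 in SW480 (1.61 ± 0.30). SKP2, which marks p27 for degradation, was at 1.42 ± 0.27, CDK2, the S phase kinase, at 1.17 ± 0.26, and the phosphatase CDKN3, named after its values were seen, at 1.31 ± 0.32. FOXM1, at 1.32 ± 0.38, missed the threshold (limma adjusted p = 0.0867). The inhibitor CDKN1A, which encodes p21, had log2 ratios of −2.04 in HT29 and 0.52 in SW480 and was not called.

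Histone genes that are expressed in S phase were higher in both lines in 18 of 18 members tested, of 48 on the list. Of the 18, 11 rose (61.1%). H3C12 (ENSG00000197153, chr6:27890382-27893106) went from 839.82 to 2984.5 normalised reads in HT29 and from 233 to 1415 in SW480, the largest log2 fold change of the 180 genes (2.21 ± 0.27, limma adjusted p = 0.00449). H2AC7 went from 450.04 to 1358 normalised reads in HT29 and from 87.4 to 401 in SW480 (1.89 ± 0.27), H2BC11 from 1668 to 5061 normalised reads in HT29 and from 508 to 2138.5 in SW480 (1.84 ± 0.27), and H2AC13 from 1786 to 5467 normalised reads in HT29 and from 324 to 1268 in SW480 (1.79 ± 0.26). H2BC4 was at 1.70 ± 0.26 and H2AC11 at 1.67 ± 0.26. H3C13, a histone H3 gene outside the list, was at 1.58 ± 0.25. These genes are near-identical in sequence, so the split of reads between copies is uncertain and the members are not separate observations. Most of their mRNAs also lack a poly(A) tail, and how fully each library captured such mRNAs was not tested. In HCT116, which was not in the fit, the list median was 5.62, against 1.54 in HT29 and 1.20 in SW480.

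Smaller shares of the chromatin assembly list and of the tubulin, lamin and HMG list rose. Of 22 genes of DNA methylation, Polycomb repressive complex 2 and histone chaperones, 5 rose: ASF1B (1.75 ± 0.29), the chromatin assembly subunits CHAF1A (1.33 ± 0.27) and CHAF1B (1.48 ± 0.33), the remodeller HELLS (1.12 ± 0.25) and the histone chaperone NASP (1.05), the last named after its values were seen. Of 27 tubulin, lamin and HMG genes, 7 rose (25.9%). LMNB1, lamin B1, went from 726 to 2339.5 normalised reads in HT29 and from 358 to 1084 in SW480 (1.64 ± 0.25, limma adjusted p = 0.00856). The chromatin proteins HMGB2 and HMGB3 were at 1.36 ± 0.26 and 1.66 ± 0.28, and TUBA1B, an alpha tubulin, at 1.35 ± 0.25. LMNA, which encodes lamins A and C and was named after its values were seen, was at 0.32 ± 0.30 and missed the threshold.

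Single members of 2 further lists rose, 3.7% of p53 targets and 2.5% of nuclear respiratory genes. Over all genes 1.62% rose, so 1 call in lists of this size is near that share and is no result about the list. TP53I3, a p53-induced oxidoreductase, went from 115 to 250 normalised reads in HT29 and from 47.6 to 235 in SW480 (1.70 ± 0.34, limma adjusted p = 0.0214) as 1 of 27 p53 targets, whose median was 0.54. ATP5MC1, a c subunit of ATP synthase, went from 292 to 837 normalised reads in HT29 and from 294 to 647 in SW480 (1.33 ± 0.26) as 1 of 40 nuclear respiratory genes. Among 40 translation initiation factors, BZW2 was the 1 that changed, and the median was −0.01. The cytosolic ribosomal protein, ribosome biogenesis, proteasome, cytosolic chaperone, NF-kappaB, NRF2, Wnt and mitochondrially encoded mRNA lists had 0 members past the threshold.

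Outside the lists stood 74 of the 180 genes that rose, and several have roles near those above. PIF1 went from 68.0 to 249 normalised reads in HT29 and from 23.2 to 96.8 in SW480 (1.93 ± 0.34). PCLAF, a partner of PCNA, went from 241 to 633 normalised reads in HT29 and from 63.0 to 262 in SW480 (1.71 ± 0.29), and DSCC1, which helps load PCNA, was at 1.56 ± 0.26. TRIP13, which remodels checkpoint proteins, was at 1.67 ± 0.28, PIMREG, a mitotic regulator, at 1.61 ± 0.28, and TCF19, a growth-regulated nuclear protein, at 1.76 ± 0.30. STMN3, a stathmin that binds tubulin, went from 6.80 to 38.1 normalised reads in HT29 and from 288 to 995 in SW480 (2.06 ± 0.33). Its HT29 libraries held 7 reads in the control and 37 in the knockdown, so that ratio rests on few reads. SERPINB5, which encodes maspin, was at 1.53 ± 0.26 and COMMD4 at 1.69 ± 0.29. Each knockdown library lay above its own control for these genes.

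**Figure D3:**
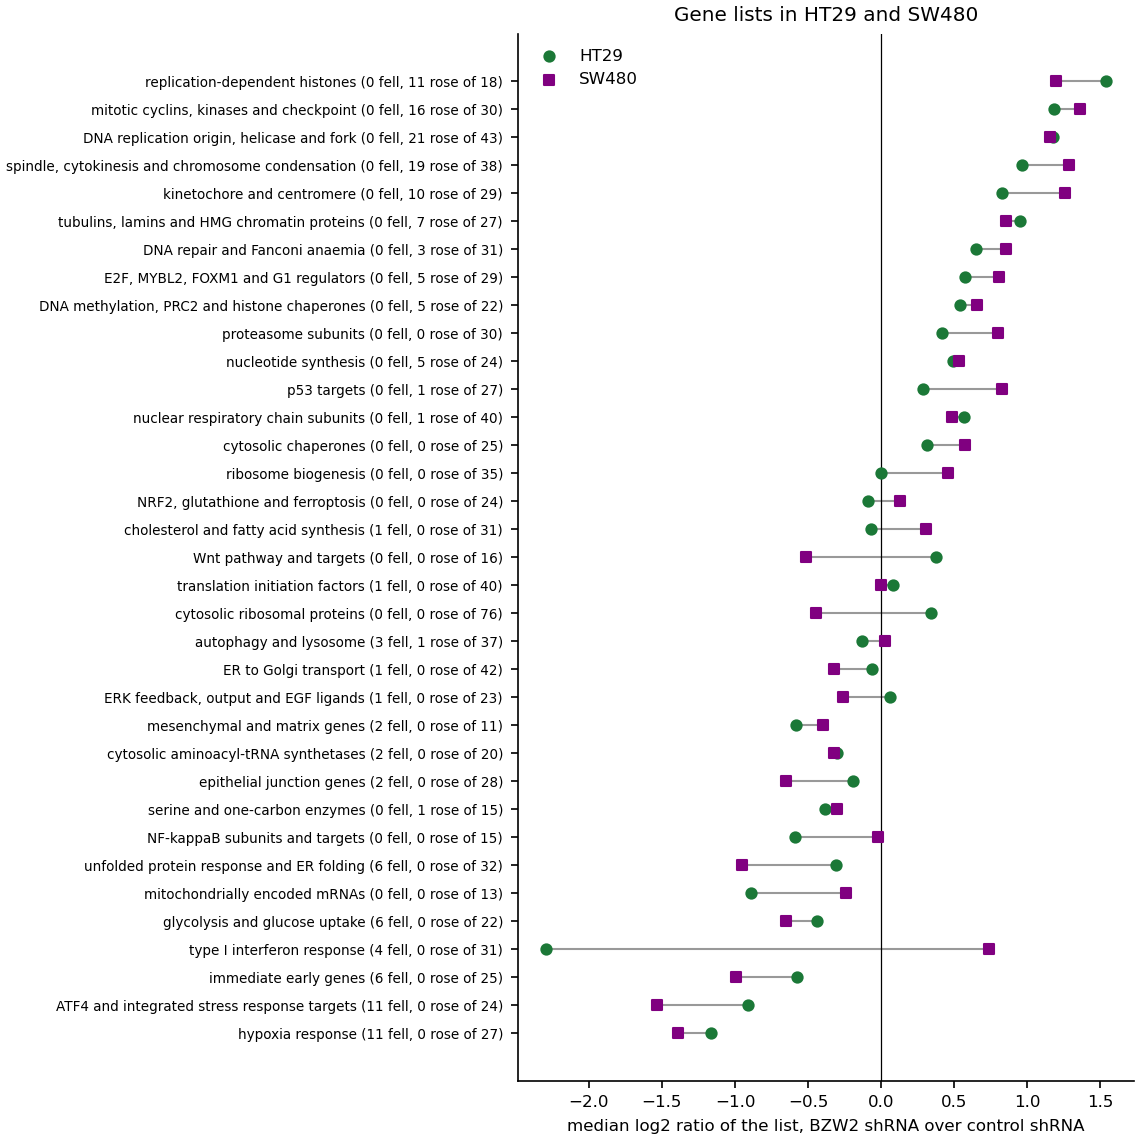
Median log2 ratio of BZW2 shRNA over control shRNA for gene lists in HT29 (green circles) and SW480 (purple squares), with the number of members that fell and rose of those tested. The colorectal epithelial marker list (medians −0.23 in HT29 and 0.04 in SW480) and the list with no tested member are not drawn. The cell division and histone lists lie to the right of 0 in both lines, the hypoxia, ATF4, immediate early, glycolysis and unfolded protein lists to the left in both, and the interferon list at −2.30 in HT29 and 0.74 in SW480.

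The HCT116 libraries, which the test did not use, had the same sign for 129 of the 145 genes that fell and are listed there (89.0%, where 49.8% of 10875 genes were lower) and for 159 of 179 that rose (88.8%, where 50.2% were higher). Median log2 ratios in HCT116 were −1.99 and 1.56. The HCT116 knockdown library had 2187373 reads, the fewest of the 6. Lists did not all follow: HCT116 medians were −1.48 for ATF4 targets, −1.27 for the unfolded protein response, 1.48 for mitotic genes and 1.42 for replication genes, with smaller ones of 0.22 for kinetochore and 0.45 for spindle genes. Opposite in sign to both HT29 and SW480 were glycolysis (1.20), immediate early genes (0.74), DNA repair (−0.051), the list of DNA methylation, Polycomb and histone chaperones (−0.16), serine and one-carbon enzymes (0.12), NF-kappaB genes (0.91), epithelial junctions (0.17) and mesenchymal genes (0.47). HK2 had a log2 ratio of 0.58 there, DUSP5 of 0.34, ADM of −0.14 and NDRG1 of −2.24. Whether the lines differ in these ratios was not tested, since each has 1 library a side.

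**Figure D4:**
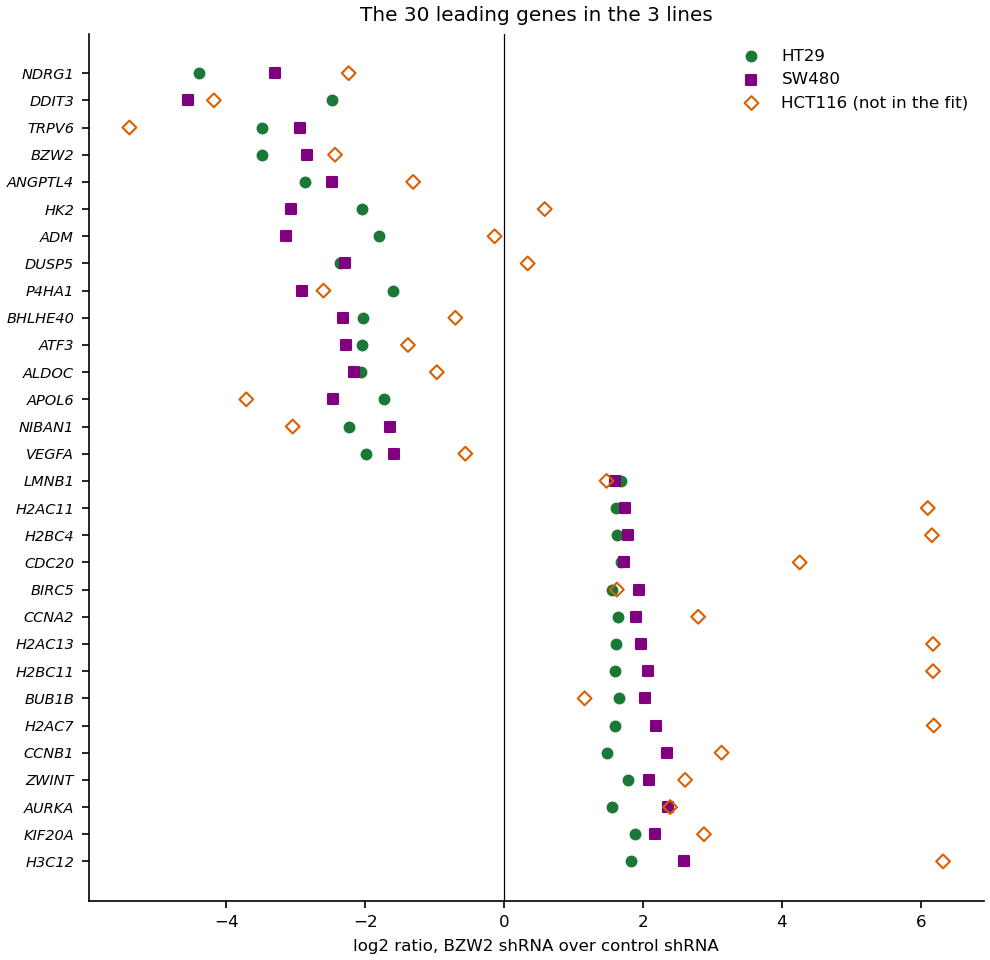
Log2 ratio of BZW2 shRNA over control shRNA for the 15 genes of smallest p that fell and the 15 that rose, in HT29 (green circles), SW480 (purple squares) and HCT116 (open diamonds, not in the fit). HK2 and DUSP5 lie above 0 in HCT116, and the 5 clustered histone genes H2AC11, H2BC4, H2AC13, H2BC11 and H2AC7, with H3C12, lie near 6 there.

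Transcript length and base composition moved with the ratios in part. Across 11080 genes the log2 ratio had a Spearman rho with GC content of 0.314 in HT29 and −0.0526 in SW480, and with length of −0.221 and −0.145. Genes that fell had a median length of 4262 bases and those that rose 2672.5, against 3672 for all tested. With both trends removed in each line, 199 genes fell and 235 rose, among them 133 of the 149 and 172 of the 180, and 80.1% and 79.5% of the called genes had the same sign in HCT116.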

How the data were processed

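RNA was sequenced in 6 libraries, and the 4 of HT29 and SW480 enter the test. Per the submitters' processing notes, bcl2fastq 2.17, STAR 2.5.2b and DESeq were used on GRCh38. Not given in the sources used here were the read counter, the annotation release and whether libraries were stranded. The deposited signal per gene is a gene read count divided by a size factor. Whole reads were recovered for 100% of the deposited values within 0.1 read, and listed genes have at least 21 reads summed over a line's libraries. Of 13040 identifiers, 19 were repeated and left out. Levels are not comparable between lines, since the factors of a line multiply to 1.

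Differences were tested with limma 3.58.1 (R 4.3.3) on log2(value + 1), with cell line as block, treatment and an intensity trend, two-sided, adjusted by Benjamini-Hochberg over 11082 genes at 0.05. Fold changes are on this log2(value + 1) scale, which understates those of low genes. There was 1 residual degree of freedom and the prior had 11.3, so spread pooled over genes dominates. The fit was tested on simulated data with the same spread for every gene. It recovered 56 of 100 genes changed by 1 on the log2 scale and 99 of 100 changed by 2, and called 3 unchanged genes. A gene that missed the threshold may therefore still have changed. No library has a replicate within its line. The block rests on the shared cell line: over 3 lines, deviations of a line's own libraries from the group means correlated at 0.276 (HCT116), 0.754 (HT29) and 0.451 (SW480). Between lines, the HCT116 knockdown correlated at 0.230 with the SW480 control, and the SW480 knockdown at 0.379 with the HCT116 control. Those values are close to the own-line ones, whereas each pair of an HT29 library with another line was negative. The 2-fold counts used TMM-scaled CPM of recovered reads with at least 5 in the higher library of each line. Alternatives used edgeR 4.0.16, DESeq2 1.42.0 and limma-voom on recovered reads. Coordinates, length and GC content came from GENCODE 29, with symbols for 11067 of the genes tested, and promoters from RefSeq, matched for 6211 tested genes with 1 listed start.

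The genes and lists were chosen with earlier results of these data known. Named were BZW2 and BZW1, the 15 genes of smallest p in each direction, up to 4 called members of smallest p in each list (or, with none called, the 2 of largest change), and the 10 of smallest p in each direction outside the lists; other genes, whether marked so or given as not called, were named after their values were seen. Some genes that the rule names are not reported here.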

Additional observations from a re-analysis of the deposited data

Results flagged for a closer look

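In 10 lists the median log2 ratio lay on opposite sides of 0 in the 2 lines. In 3 of them both medians were at least 0.3 from 0, a limit chosen with earlier results known, and in the other 7 the smaller median was at most 0.0894 in size. The 3 are given here, and in no case was the difference between lines tested, since each line has 1 library a side. For the type I interferon response it was −2.30 in HT29 and 0.74 in SW480, a difference of −3.04, and 31 of 31 members were lower in HT29 while 22 were higher in SW480. IFIT1, named after its values were seen, had log2 ratios of −3.65 in HT29 and 2.55 in SW480. Cytosolic ribosomal proteins had medians of 0.34 (HT29) and −0.44 (SW480), a difference of 0.78, with 0 of 76 members lower in both lines and 2 higher in both. For the Wnt pathway and its targets it was 0.38 and −0.52, a difference of 0.89. EPHB2, a Wnt target receptor, went from 27.2 to 94.6 normalised reads in HT29 and from 139 to 97.7 in SW480, and TCF7L2, the main TCF factor of the colon, had log2 ratios of −0.40 in HT29 and −0.95 in SW480.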

How the results depend on the processing

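The counts of genes that fell and rose, 149 and 180, were within 1.5 times under another pseudocount, a mean value filter, TMM scaling, limma-voom and removal of GC and length trends. Without the replicate block both counts were 0 and BZW2, still at −3.16, had a limma adjusted p of 1. With HCT116 added both were 0 and BZW2 was at −2.92 (adjusted p = 0.155). Without the intensity trend they were 20 and 0. The count that rose was 105 with DESeq2 size factors, 119 with edgeR's quasi-likelihood test and 119 with DESeq2. The cause of these changes was not tested. Leaving out a line left no residual degrees of freedom, so the counts of calls have no such value. BZW2 was then at −3.49 and −2.84. The counts of 2-fold genes were 524 lower and 544 higher at 1.5-fold, 34 and 9 at 3-fold, 81 lower at a CPM of at least 20, and 586 to 598 lower and 357 to 452 higher in a single line. With GC and length trends removed alongside the replicate block, the same sign in HCT116 was seen for 80.1% of genes that fell and 79.5% of those that rose. Of 104 other named genes that were called, 93 to 100 kept the call in edgeR, DESeq2 and limma-voom, 89 with DESeq2 size factors, 11 without the intensity trend and 0 without the block or with HCT116 added. With HCT116 added, BZW1 turned to −0.14, RPS16 to 0.0467, HSPA1A to 0.61 and KRT19 to 0.56, none of them called. Of 36 list medians, 34 kept their sign with GC and length trends removed, 33 without HT29 (replicate 2) and 29 without SW480 (replicate 3). Low reads limit genes such as ANGPTL4 and STMN3 in HT29.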

Other observations

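Some lists held few or no genes past the threshold while nearly all members had a log2 fold change of the same sign. Nuclear genes of the respiratory chain had a positive one in 40 of 40 members (median 0.52), and 39 were higher in both lines. The 13 mRNAs made in mitochondria had a negative one in 13 of 13 (median −0.53), with medians of −0.89 in HT29 and −0.24 in SW480. Of these 13, 10 were lower in both lines and 3 were higher in SW480. MT-CO1, a subunit of cytochrome oxidase, went from 19426 to 10458 normalised reads in HT29 and from 17872 to 9199.7 in SW480 and MT-ND4, of complex I, from 2222 to 760.28 normalised reads in HT29 and from 2701 to 1894 in SW480. Neither passed (limma adjusted p = 0.201 and 0.0897). Among 30 proteasome subunits 29 had a positive log2 fold change (median 0.58) and 27 were higher in both lines. The largest were PSMD1 at 1.06 ± 0.27 (limma adjusted p = 0.059) and PSMB6 at 0.93 ± 0.27. Over all genes 5706 of 11082 were positive, 3779 were higher in both lines and 3212 lower in both. The members of a complex are not separate observations.

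In the cytosolic chaperone list HSPE1, the mitochondrial cochaperonin, was at 0.97 ± 0.26 and HSPA1A, a heat shock HSP70 with a near-identical neighbour HSPA1B, at −0.99 ± 0.30. The ribosome biogenesis list had a median of 0.27, with UTP20 at 0.81 ± 0.27 and UBTF, a factor of RNA polymerase I, at 0.74 ± 0.26. In the NRF2 list KEAP1, which restrains NRF2, was at 0.89 ± 0.29 and OSGIN1 at −1.17 ± 0.43. In the NF-kappaB list TNFAIP3, a feedback inhibitor, was at −1.15 ± 0.49, while BIRC3 had log2 ratios of −2.28 in HT29 and 0.13 in SW480. None of these passed the threshold in limma, and the chaperone, biogenesis, NRF2 and NF-kappaB lists held 0 called members. The keratin KRT19 was at −0.35 ± 0.33 and EPCAM at −0.23 ± 0.27. The ribosomal proteins RPS16 and RPL12 had log2 ratios of 0.13 in HT29 and −1.23 in SW480 and of 0.04 in HT29 and −0.86 in SW480.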
